A study of Mus musculus with 16 samples.

Results

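The genes described here are 43 interferon-stimulated genes, a list of known targets of interferon signalling, followed in 4TO7 cells that overexpress miR-200 miRNAs or CDH1. A gene was taken from the array through its current symbol, an older symbol or an accession that maps to it. Of the 43, 42 had a probe (Xaf1 had none), and 40 were above background on both arrays of at least 1 group and were tested. Mx1 and Iigp1 were not well above background on both arrays of any group. The array names 27670 genes in all, of which 18885 passed the same filter.

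4TO7 is a mouse mammary carcinoma line, grown here in 10% serum and infected with retroviral vectors. The series asked what changes in gene expression follow miR-200 overexpression, and it has 8 groups of 2 arrays. The overexpressing groups were Cluster 1, Cluster 2, Clusters 1+2 and CDH1, where a cluster is 1 of the genomic groups of miR-200 genes and CDH1 is E-cadherin, the epithelial adhesion protein. Their controls were the Puro vector for Cluster 1, the Hygro vector for Cluster 2, the Hygro and Puro vectors together for Clusters 1+2, and, for CDH1, a Puro vector line of its own. The sources used here do not say which miRNAs each cluster label covers, or whether the repeats, called biological replicates in the series design, were separate infections. If the repeats were cultures of 1 infected pool, no p-value here covers the spread between independently made lines. Each array paired a sample with a universal mouse reference RNA from 11 cell lines. A level is the log2 ratio of sample over reference, and a difference is a difference between 2 such levels. Levels are compared only between groups for the same probe.

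Interferons are cytokines, and cells secrete those of type I when they detect viral nucleic acid. Type I interferon binds the receptor made of Ifnar1 and Ifnar2, the kinases Jak1 and Tyk2 are activated, and Stat2 and Irf9 enter a complex that binds the interferon-stimulated response element (ISRE) of target promoters. Interferon gamma acts through Ifngr1 and Ifngr2 and on another element, the gamma-activated site (GAS). Many of the targets act against viruses, and carcinoma lines can express part of the set with no infection.

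Promoter sequence from RefSeq (build GRCm38.p6) was held for 31 of the 43 members, in windows that run from 250 bases before to 50 bases after each start. The ISRE was searched as GAAANNGAAA on both strands, where the reverse strand reads TTTCNNTTTC, and matches may overlap. It occurred in 16 of the 31 members (51.6%) and in 3.99% of 27025 genes with such a window. The GAS was searched as TTCNNNGAA, which reads the same on both strands, and occurred in 11 members (35.5%) and in 9.55% of genes. A match is a description of the letters and was not tested as a binding site. Stretches of 6 promoters are printed because they show the element that the list is known for, in genes that moved differently here. The matches are in capitals and lie 34 to 130 bases before the start.
Isg15: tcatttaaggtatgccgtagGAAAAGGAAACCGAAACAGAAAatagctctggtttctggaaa
Ifit1: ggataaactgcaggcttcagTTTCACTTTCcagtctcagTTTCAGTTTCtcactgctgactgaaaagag
Bst2: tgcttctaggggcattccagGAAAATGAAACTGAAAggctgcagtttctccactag
Gbp3: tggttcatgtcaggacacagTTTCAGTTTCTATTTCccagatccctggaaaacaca
Igtp: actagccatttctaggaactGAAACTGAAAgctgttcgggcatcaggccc
Ifi203: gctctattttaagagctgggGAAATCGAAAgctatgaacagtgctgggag
These lie at chr4:156200855-156200916 on the minus strand for Isg15, chr19:34640765-34640833 on the plus strand for Ifit1, chr8:71537567-71537622 on the minus strand for Bst2, chr3:142559979-142560034 on the plus strand for Gbp3, chr11:58199502-58199551 on the plus strand for Igtp and chr1:173942498-173942547 on the minus strand for Ifi203. Isg15 holds 3 overlapping matches, and Ifit1 holds 2 that do not overlap.

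Isg20, Irf1 and Ifi202b had no ISRE match in their windows but each had a GAS match, shown here in capitals because these genes stood out in the comparisons.
Isg20: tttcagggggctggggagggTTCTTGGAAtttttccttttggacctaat
Irf1: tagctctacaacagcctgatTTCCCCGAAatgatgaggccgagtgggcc
Ifi202b: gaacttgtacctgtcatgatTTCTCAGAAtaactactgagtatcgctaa
The stretches lie at chr7:78913331-78913379 on the plus strand, chr11:53769904-53769952 on the plus strand and chr1:173982964-173983012 on the minus strand. No window was held for Rtp4, Parp14 or Ifi27.

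The arrays lay on 4 slides. Repeats A and B of the 4 groups labelled with Cy3 (Cluster 2, Clusters 1+2 and their controls) lay on slides 1 and 2, CDH1 and its control lay on slide 3, and Cluster 1 and its control lay on slide 4, all labelled with Cy5. The median absolute difference in log2 ratio between the repeats was 0.0733 to 0.118 over the members and 0.0826 to 0.108 over all genes. Between 29.9% and 68.7% of probes were well above background in the sample channel of an array, and the Puro vector for CDH1 had the lowest share, 47.9% and 29.9%. That control had 33 and 21 of the 40 members above background, where the other 14 arrays had 30 to 40. Cdh1 was called higher in all 4 overexpressing groups, by 1.21 in Cluster 1 (1.21 and 1.29, against -0.01 and 0.09 in its Puro vector), 1.93 in Cluster 2 and 2.86 in Clusters 1+2. In CDH1 cells it was at 0.57 and 0.77, against 0.03 and 0.09 in a control that lay at background, so no size is given. Of the 5 carcinoma markers, Krt8 and Krt18 were above background on all 16 arrays and Krt7, Vim and Cdh1 on 14 or 15. Of 9 leukocyte markers Ncr1 and Siglech were above background on no array and Ptprc, the pan-leukocyte marker, on 7.

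The list as a whole was higher in Cluster 1 cells and lower in CDH1 cells than in their own controls, but the 2 Puro vector controls differed from each other by about the same amount. The median level of the members was -0.12 and -0.10 in Cluster 1, against -0.49 and -0.47 in its Puro vector. It was -0.41 and -0.51 in CDH1, against -0.10 and -0.07 in its Puro vector. The Cluster 1 arrays thus lay near the control of the CDH1 cells, and the CDH1 arrays near the control of the Cluster 1 cells. In Cluster 2 the median was -0.93 and -0.78, against -0.66 and -0.58 in the Hygro vector, and in Clusters 1+2 it was -0.56 and -0.39, against -0.75 and -0.66 in the Hygro and Puro vectors. In these bulk samples fewer expressing cells and less RNA per cell cannot be told apart.

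**Figure D1:**
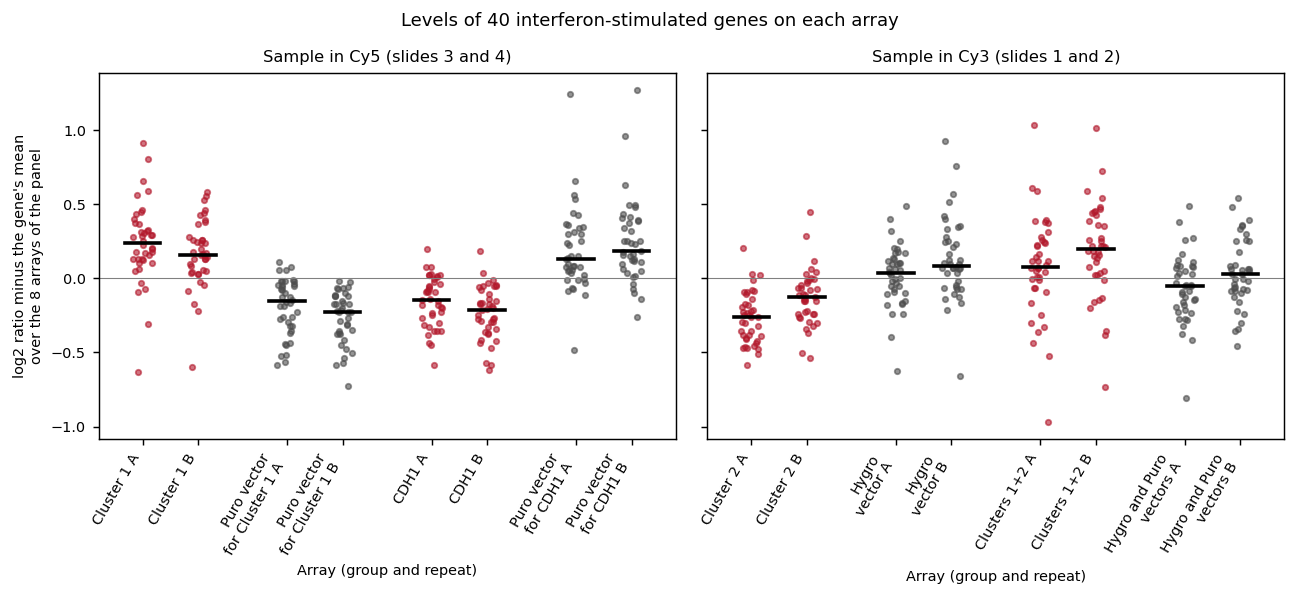
Levels of the 40 tested interferon-stimulated genes on each of the 16 arrays, as the log2 ratio of sample over reference RNA minus the gene's mean over the 8 arrays of the panel (vertical axis); each point is a gene, black bars are medians, red marks overexpressing groups and grey marks vector controls. In the left panel Cluster 1 and the Puro vector for CDH1 lie above 0 at the median, and the Puro vector for Cluster 1 and CDH1 lie below it.

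Tests are limma's moderated test in 1 model over 16 arrays, with p-values adjusted over all genes (Benjamini-Hochberg), and a member is called at an adjusted p under 0.05. In Cluster 1 17 of the 40 members rose and 0 fell, where 8.31% of all genes were called, 4.89% higher and 3.42% lower (median difference 0.34 over the members and 0.01 over all genes). In Cluster 2 1 rose and 11 fell, where 2.84% of genes were called, 1.77% higher and 1.07% lower (median -0.25). In Clusters 1+2 14 rose and 6 fell, where 24.9% of genes were called, 12.1% higher and 12.8% lower (median 0.13). In CDH1 1 rose and 18 fell, where 14.6% of genes were called, 7.68% higher and 6.92% lower (median -0.40). The Puro vector for Cluster 1 had 19 members lower and 0 higher than the Puro vector for CDH1, where 10.1% of genes were called, 4.9% higher and 5.23% lower (median -0.38). The Hygro and Puro vectors differed from the Hygro vector in 0 members by limma (2 at an unadjusted p under 0.05, Irf7 and Gbp2), where 0.0372% of genes were called, 0.0319% higher and 0.00531% lower (median -0.09). Every called member with values on all 4 arrays had levels that did not overlap between the groups. With 2 arrays a group a call makes this likely, so it is no separate support. Over members with complete values, called or not, Cluster 1 lay wholly above its control in 34 of 39 (27.2% of genes) and wholly below it in 1 (24.2%). Cluster 2 lay above in 4 of 39 (21.9%) and below in 25 (22.4%), and Clusters 1+2 above in 20 of 39 (29.3%) and below in 6 (28.5%). CDH1 lay above in 1 of 38 (28% of genes) and below in 28 (26.4%), and the Puro vector for Cluster 1 lay above that for CDH1 in 0 of 38 (26.6%) and below it in 30 (24%). The Hygro and Puro vectors lay above the Hygro vector in 3 of 39 (17.9%) and below it in 18 (17%). By promoter, Cluster 1 had 4 rises among the 16 tested members with an ISRE match, 8 among the 14 with a window and no match and 5 among the 10 with no window (4.89% of all genes). In the same order Cluster 2 had 4, 2 and 5 falls (1.07%), Clusters 1+2 had 6, 5 and 3 rises (12.1%) and 3, 2 and 1 falls (12.8%), and CDH1 had 5, 7 and 6 falls (6.92%). With the spots kept that the scanner software marked as faulty, 4, 3, 12, 9 and 5 members were called in the first 5 of these comparisons. The share of all genes called with those spots kept is not given here. These counts thus do not show whether the members lost calls more often than other genes.

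**Figure D2:**
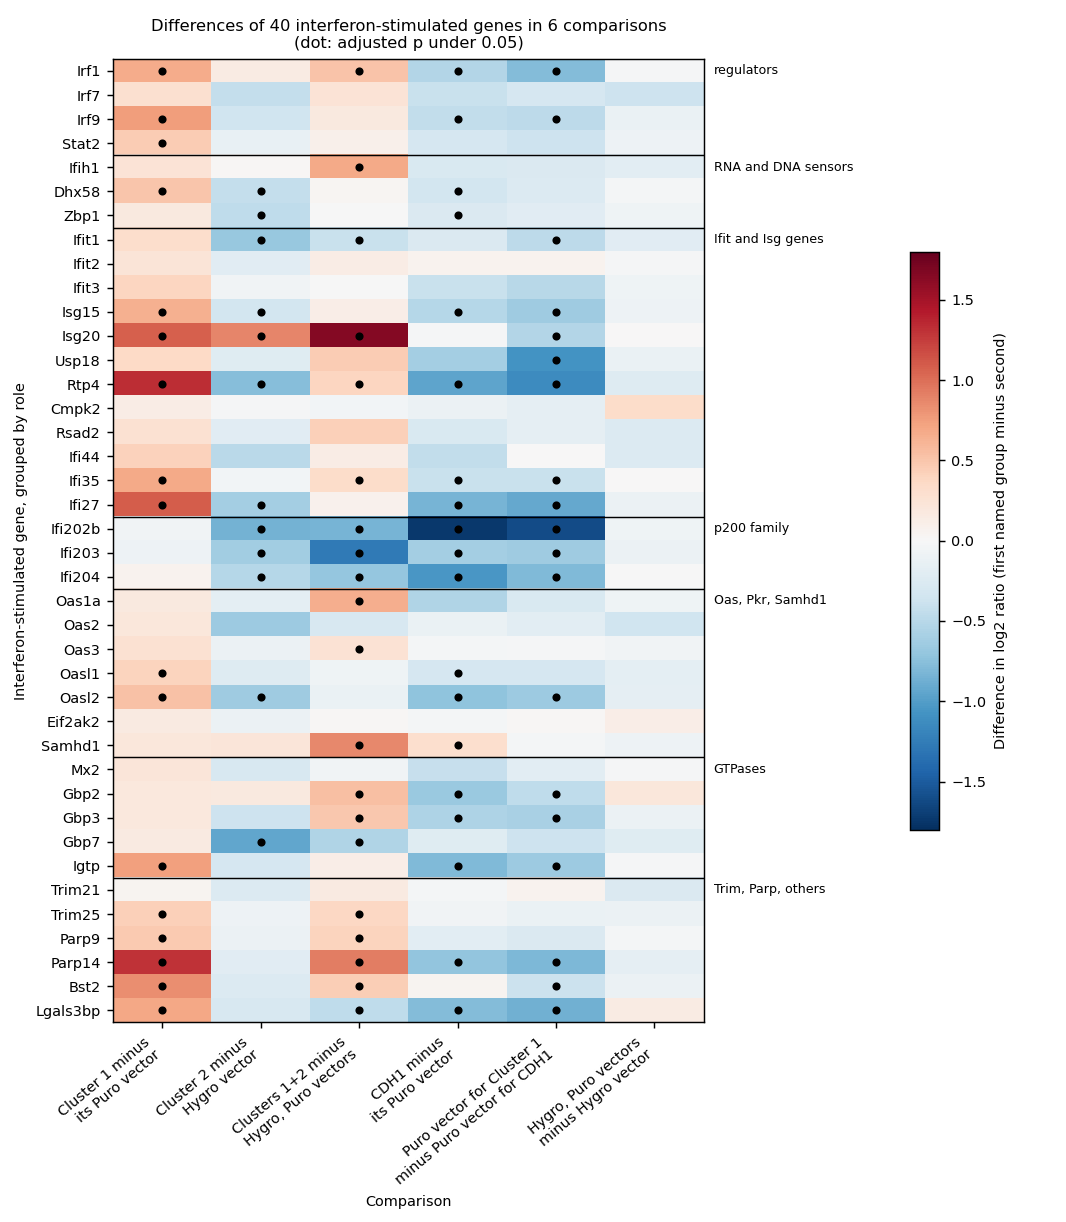
Differences in log2 ratio of the 40 tested genes (rows, grouped by role) in 6 comparisons (columns, the first named group minus the second); red is higher and blue lower in the first named group, and dots mark an adjusted p under 0.05. The first column holds 17 dots, all red, the fifth holds 19, all blue, and the last holds none.

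Among the regulators, Irf1 and Irf9 rose in Cluster 1 and fell in CDH1. Irf1 is a transcription factor that interferon gamma induces through a GAS. Its level was 0.29 and 0.27 in Cluster 1, against -0.40 and -0.38 in its Puro vector, a rise of 0.67 (SE 0.0635, adjusted p = 4.33e-05). In Clusters 1+2 Irf1 was at -0.27 and -0.22, against -0.69 and -0.82 in the Hygro and Puro vectors (0.51, adjusted p = 6.51e-05). In CDH1 it was at -0.15 and -0.13, against 0.40 and 0.38 in its Puro vector (-0.53, adjusted p = 0.000134). In Cluster 2 it was at -0.59 and -0.59, against -0.76 and -0.71 in the Hygro vector, and was not called (0.14, adjusted p = 0.33). Irf1 was also lower in the Puro vector for Cluster 1 than in that for CDH1 (-0.78, adjusted p = 1.07e-05), and each CDH1 and Cluster 1 array lay between the 2 vector lines. A second Irf1 probe, above background on 15 arrays, gave 0.18 in Cluster 1, 0.33 in Clusters 1+2, -0.32 in CDH1 and -0.36 between the Puro vectors.

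Irf9, the DNA-binding subunit of the complex that holds Stat2, was at 0.32 and 0.31 in Cluster 1, against -0.44 and -0.43 in its Puro vector (0.75, SE 0.106, adjusted p = 0.00121). In CDH1 it was at -0.31 and -0.49, against -0.04 and 0.12 in its Puro vector, where 1 of 2 arrays was above background (-0.44, adjusted p = 0.0164). That fall turned to 0.62 when the sample channel was read alone, where it was not called (adjusted p = 0.409). Irf9 was not called in Cluster 2 (-0.70, 1 array missing, against -0.39 and -0.31 in the Hygro vector) or in Clusters 1+2 (-0.30 and -0.26, against -0.29 and -0.63 in the Hygro and Puro vectors). It was called lower in the Puro vector for Cluster 1 than in that for CDH1 (-0.48, adjusted p = 0.0141), and the sample channel alone gave 0.61 there. With marked spots kept, and in the sample channel alone, the Cluster 1 call ended too. A second Irf9 probe, above background on 3 of 16 arrays, gave 0.00 in Cluster 1 and -0.08 in CDH1.

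Stat2 carries the activation domain of the same complex. It was called higher in Cluster 1 (-0.27 and -0.38, against -0.63 and -0.93 in its Puro vector, adjusted p = 0.0292), but no Cluster 1 array and 1 of 2 control arrays were well above background, so no size is given. The call ended without Cluster 1 replicate A or B or its control's replicate B, and under 5 of 11 other settings. Stat2 was called in no other of the 6 comparisons. It was at -0.87 and -0.83 in Cluster 2, against -0.78 and -0.64 in the Hygro vector, and at -0.77 and -0.65 in Clusters 1+2, against -0.80 (1 array) in the Hygro and Puro vectors. In CDH1 it was at -0.59 and -0.86, against -0.42 and -0.40 in its Puro vector. Irf7, the factor that amplifies type I interferon production, was called in no comparison. Its level was -0.65 and -0.73 in Cluster 1, against -0.94 and -1.03 in its Puro vector, and -1.36 and -0.99 in Cluster 2, against -0.92 and -0.58 in the Hygro vector. In Clusters 1+2 it was -0.99 and -0.76, against -1.26 and -0.98 in the Hygro and Puro vectors, and in CDH1 -0.93 and -1.23, against -0.77 and -0.60 in its Puro vector. The Irf7 levels overlapped between the groups in Clusters 1+2 and did not in the other 3 comparisons.

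The cytoplasmic sensors did not move together. Dhx58 (Lgp2), an RNA helicase of the RIG-I family, rose in Cluster 1 (0.50, adjusted p = 0.00534) and fell in Cluster 2 (-0.44, adjusted p = 0.0263) and CDH1 (-0.32, adjusted p = 0.0361); 1 of 2 arrays of each Puro vector was above background for it. Zbp1, a sensor of Z-form nucleic acid, fell in Cluster 2 (-0.46, adjusted p = 0.00466) and CDH1 (-0.26, adjusted p = 0.0315) and was not called in Cluster 1 (adjusted p = 0.218), where its Puro vector lay at background on both arrays. Ifih1 (Mda5), the sensor of long double-stranded RNA, rose in Clusters 1+2 alone among the 6 comparisons. Its level there was 0.44 and 0.52, against -0.13 and -0.28 in the Hygro and Puro vectors (0.69, SE 0.104, adjusted p = 0.000319). Its rise in Clusters 1+2 exceeded its effect in Cluster 2 (difference of effects 0.67, adjusted p = 0.0158), a call that ended without replicate B of the Hygro vector, of Clusters 1+2 or of the Hygro and Puro vectors, and under 5 of 9 other settings. Leaving out 1 array ended the Dhx58 call in Cluster 1 (without its control's replicate B), in Cluster 2 and in CDH1 (any of the 4 arrays in each), and the Zbp1 call in Cluster 2 (without Hygro vector replicate B) and CDH1 (any array).

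Among the Ifit and Isg genes, Rtp4 moved furthest in Cluster 1. Rtp4, an interferon-induced chaperone of membrane receptors, was at -0.51 and -0.79 in Cluster 1, against -1.91 and -2.05 in its Puro vector (1.32, SE 0.111, adjusted p = 1.6e-05). In Cluster 2 it was at -1.67 and -1.62, against -0.95 and -0.81 in the Hygro vector (-0.77, adjusted p = 0.00192; -0.72 on slide 1 and -0.81 on slide 2). In CDH1 it was at -1.91 and -1.70, against -0.79 and -0.92 in its Puro vector (-0.95, adjusted p = 0.000105). In Clusters 1+2 it was at -0.80 and -0.62, against -1.05 and -1.16 in the Hygro and Puro vectors (0.39, adjusted p = 0.0194), a call that ended without replicate B of either group. Among the Cy5 groups Rtp4 was thus low in CDH1 and the Puro vector for Cluster 1. Among the Cy3 groups it was lowest in Cluster 2. Dye and slide differ between these sets of groups, so levels are not ranked across them. Rtp4 was the 1 member that fell in Cluster 2 and rose in Clusters 1+2. The call of the rise ended under 7 of 10 other settings and that of the fall under 4 of 10. The Rtp4 probe lies at chr16:23271913-23271972 in build mm7, the build of the probe annotation.

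Ifi27, a small mitochondrial membrane protein, followed the same order in the Cy5 groups. It was at 0.55 and 0.54 in Cluster 1, against -0.59 and -0.50 in its Puro vector (1.08, SE 0.0837, adjusted p = 7.81e-06). It was at -0.47 and -0.44 in CDH1, against 0.28 and 0.47 in its Puro vector (-0.83, adjusted p = 3.46e-05). In Cluster 2 it fell by 0.61 (adjusted p = 0.00127), and in Clusters 1+2 its difference was 0.07 (adjusted p = 0.615). A second Ifi27 probe, above background on 12 arrays, gave 0.61 in Cluster 1, -0.06 in Cluster 2, -1.01 in CDH1 and -0.43 between the Puro vectors. Averaging the probes ended the Ifi27 calls in Cluster 2, CDH1 and between the Puro vectors. Isg15, the ubiquitin-like modifier with 3 ISRE matches above, rose by 0.65 in Cluster 1 (adjusted p = 0.000106). It fell by 0.33 in Cluster 2 (adjusted p = 0.0234) and by 0.51 in CDH1 (adjusted p = 0.000344). The Cluster 2 call of Isg15 ended without Hygro vector replicate A or B or Cluster 2 replicate B. The Isg15 probe is placed on chromosome 17 in mm7 by the scanner files, whereas the gene is on chromosome 4 in GRCm38. Ifi35 rose in Cluster 1 (0.69, adjusted p = 0.000242) and Clusters 1+2 (0.33, adjusted p = 0.00921) and fell in CDH1 (-0.40, adjusted p = 0.00504). Its calls ended without replicate A of the Hygro and Puro vectors in Clusters 1+2, and without replicate B of the Puro vector in CDH1.

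Isg20, an interferon-induced exonuclease of RNA, rose in all 3 miR-200 comparisons, and was the 1 member that rose in Cluster 2. Its level was -0.40 and -0.62 in Cluster 1, against -1.58 and -1.59 in its Puro vector (1.08, SE 0.103, adjusted p = 4.78e-05). It was -0.47 and -0.38 in Cluster 2, against -1.29 and -1.33 in the Hygro vector (0.88, adjusted p = 0.000345; 0.82 on slide 1 and 0.94 on slide 2). It was 0.37 and 0.35 in Clusters 1+2, against -1.48 and -1.12 in the Hygro and Puro vectors (1.66, adjusted p = 1.57e-07). No overexpressing array overlapped its control in these 3 comparisons, where 27.2%, 21.9% and 29.3% of all genes lay wholly above it. The effect on Isg20 in Clusters 1+2 was larger than in Cluster 2 (difference of effects 0.77, adjusted p = 0.00667, a call that ended under 5 of 9 other settings). In CDH1 it was at -1.05 and -1.11, against -1.07 and -1.04 in its Puro vector, and was not called. A second probe gave 0.87, 0.73 and 1.44 in Cluster 1, Cluster 2 and Clusters 1+2. The probe used lies at chr7:74779788-74779847 (mm7). The Cluster 2 call ended with scaled spread between arrays and with marked spots kept, and the Cluster 1 call with marked spots kept.

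Ifit1, a protein that binds viral RNA lacking cap methylation, fell in Cluster 2 and Clusters 1+2. It was at -0.65 and -0.51 in Cluster 2, against 0.06 and 0.16 in the Hygro vector (-0.69, adjusted p = 0.00499), a call that ended without Hygro vector replicate B. In Clusters 1+2 it fell by 0.40 (adjusted p = 0.0204), a call that ended without Clusters 1+2 replicate A or replicate B of its control. Ifit1 was called lower in the Puro vector for Cluster 1 than in that for CDH1 (adjusted p = 0.0199), but was not well above background in either group, so no size is given. Usp18, which removes Isg15 from proteins and damps interferon signalling, was at -2.29 and -2.35 in the Puro vector for Cluster 1, against -1.61 and -0.89 in the Puro vector for CDH1 (-1.07, adjusted p = 0.0291). The repeats of the CDH1 control lay far apart, and the call ended without its replicate B or without either replicate of the other vector. Ifit2, Ifit3, Cmpk2, Rsad2 (viperin) and Ifi44 were called in no comparison, and Cmpk2, Rsad2 and Ifi44 lay at background in several of the Cy5 groups.

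The p200 genes encode proteins that bind DNA in the nucleus and cytoplasm. Ifi202b, Ifi203 and Ifi204 fell in Cluster 2, Clusters 1+2 and CDH1, 3 of 3 each time, where 1.07%, 12.8% and 6.92% of all genes fell. None of the 3 was called in Cluster 1 (differences of -0.09 to 0.07, and 0 of the 3 at an unadjusted p under 0.05). Ifi202b was at -1.48 and -1.71 in CDH1, against 0.12 and 0.15 in its Puro vector (-1.73, SE 0.145, adjusted p = 7.6e-06), the largest fall of any member in the 6 comparisons. In Cluster 2 it was at -2.18 and -2.08, against -1.34 and -1.22 in the Hygro vector (-0.85, adjusted p = 0.00614; -0.84 and -0.86 by slide), and in Clusters 1+2 at -2.26 and -2.12, against -1.36 and -1.34 in the Hygro and Puro vectors (-0.84, adjusted p = 0.000871). In Cluster 1 it was at -1.75 and -1.34, against -1.27 and -1.69 in its Puro vector. The Puro vector for CDH1 was thus the Cy5 group in which Ifi202b was highest, and the 2 Puro vectors differed by -1.62 (adjusted p = 2.12e-05). The sample channel alone ended all 4 Ifi202b calls, and the Cluster 2 call ended without Hygro vector replicate B. In Cluster 2 scaled spread between arrays ended the calls of all 3 genes, as did a fit of the compared groups alone.

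Ifi203 was at -1.23 and -0.99 in Clusters 1+2, against 0.23 and 0.10 in the Hygro and Puro vectors (-1.28, SE 0.0887, adjusted p = 4e-07), and fell further than in Cluster 2 (-0.63, adjusted p = 0.00157; difference of effects -0.65, adjusted p = 0.00781, a call that ended under 5 of 9 other settings). It was the 1 member with a negative called difference between these effects. Ifi204 was at -1.06 and -1.14 in CDH1, against -0.05 and -0.07 in its Puro vector (-1.04, SE 0.0692, adjusted p = 1.46e-06). In Clusters 1+2 Ifi204 was at -1.54 and -1.46, against -0.85 and -0.77 in the Hygro and Puro vectors (-0.69, adjusted p = 1.02e-05). The levels of these 3 genes did not overlap between an overexpressing group and its control in Cluster 2, Clusters 1+2 or CDH1. Of all genes 22.4%, 28.5% and 26.4% lay wholly below the control in these comparisons. The 3 probes lie on chromosome 1 in mm7 (173928807 to 173929836 for Ifi202b, 173886462 to 173886521 for Ifi203 and 173721318 to 173721377 for Ifi204). The genes are close copies of one another, and cross-hybridisation between their probes was not tested. Other probes of Ifi203 gave -0.58 and -0.50 in Clusters 1+2 and -0.24 and 0.05 in CDH1. Those of Ifi204 gave -0.62 and -0.66 in Clusters 1+2 and -1.13 and -0.33 in CDH1. Ifi205, a further gene of the family outside the list, fell by 0.60 in Cluster 2 (adjusted p = 0.00201), by 0.95 in Clusters 1+2 (adjusted p = 5.1e-06) and by 1.08 in CDH1 (adjusted p = 6.29e-06).

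**Figure D3:**
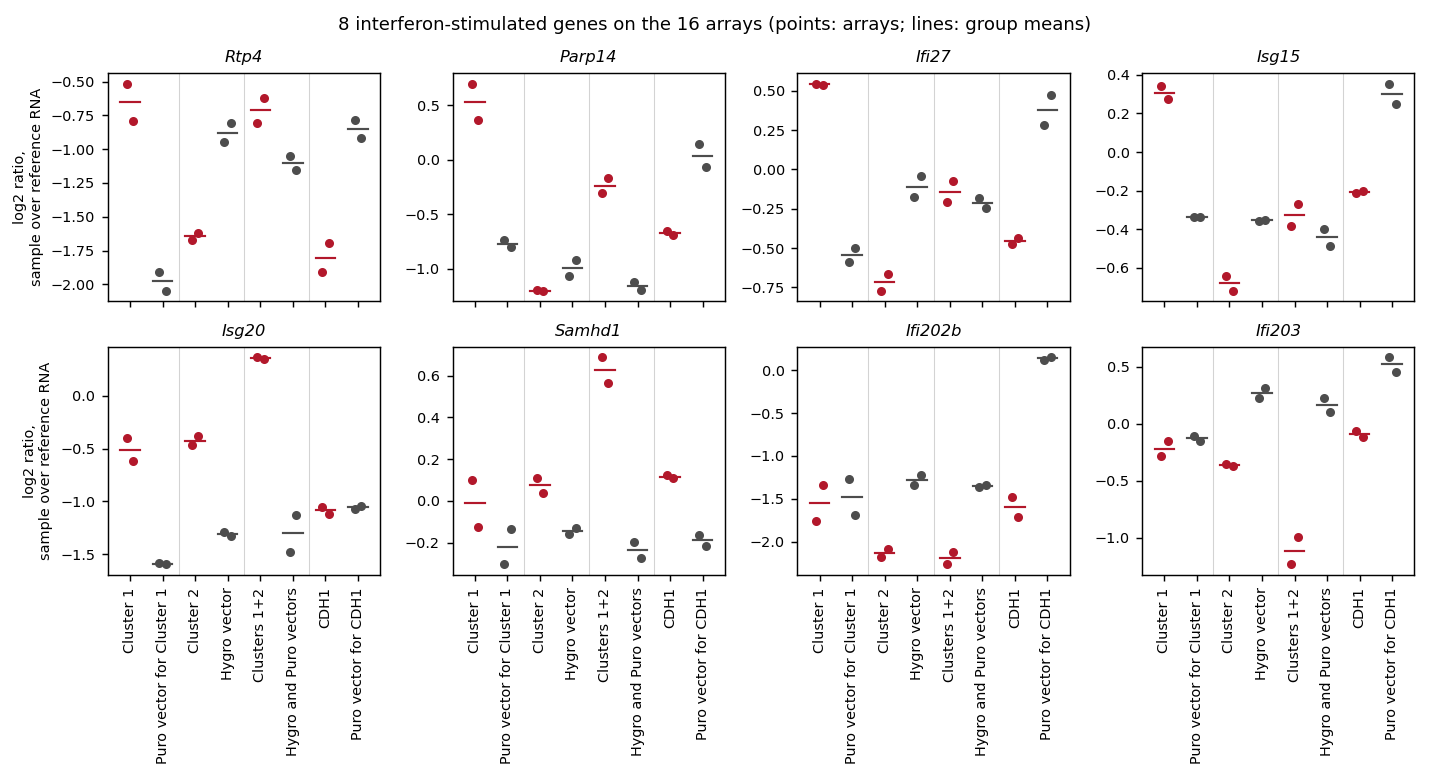
Levels of 8 members on the 16 arrays, as the log2 ratio of sample over reference RNA (vertical axis, scaled per gene); points are arrays, lines are group means, red marks overexpressing groups and grey marks the vector control to their right. Isg20 is higher in the 3 miR-200 groups than in their controls. Samhd1 is highest in Clusters 1+2 among the Cy3 groups, and Ifi202b is highest in the Puro vector for CDH1 among the Cy5 groups.

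Of the antiviral enzymes, Oasl2 moved with the main pattern and Samhd1 did not. Oasl2, a relative of the oligoadenylate synthetases, rose by 0.52 in Cluster 1 (adjusted p = 0.00117). It was at -1.03 and -0.95 in Cluster 2, against -0.42 and -0.29 in the Hygro vector (-0.63, adjusted p = 0.000468), and fell by 0.72 in CDH1 (adjusted p = 5.85e-05). Samhd1, which breaks down deoxynucleotides, was at 0.69 and 0.56 in Clusters 1+2, against -0.20 and -0.27 in the Hygro and Puro vectors (0.86, SE 0.0866, adjusted p = 1.05e-05). It was also the 1 member that rose in CDH1, at 0.12 and 0.11, against -0.16 and -0.22 in its Puro vector (0.31, adjusted p = 0.0323), a call that was lost whichever of the 4 arrays was left out. Oas1a, an oligoadenylate synthetase, was at -0.25 and -0.05 in Clusters 1+2, against -0.88 and -0.73 in the Hygro and Puro vectors (0.65, adjusted p = 0.0147). Oas3 rose there too (0.26, adjusted p = 0.035). The Oas1a call ended without replicate A of the Hygro and Puro vectors or replicate B of Clusters 1+2, and the Oas3 call without any of the 4 arrays. Oasl1 rose in Cluster 1 (0.40, adjusted p = 0.0165) and was called lower in CDH1 (-0.30, adjusted p = 0.0453), a difference that was 0.01 in the sample channel alone. Leaving out any array ended the CDH1 call of Oasl1, and leaving out Cluster 1 replicate A or either control array ended the Cluster 1 call. Oas2 and Eif2ak2, the RNA-activated kinase PKR, were called in no comparison.

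The GTPases split between groups. Igtp (Irgm3), an immunity-related GTPase, rose by 0.73 in Cluster 1 (adjusted p = 0.00112). It was at -1.03 and -1.28 in CDH1, against -0.39 and -0.33 in its Puro vector (-0.79, SE 0.107, adjusted p = 0.000319). The guanylate-binding proteins Gbp2 and Gbp3, GTPases that attack pathogen vacuoles, rose in Clusters 1+2 (Gbp2 by 0.54, adjusted p = 0.000607, and Gbp3 by 0.49, adjusted p = 0.00842). Both fell in CDH1 (Gbp2 by 0.67, adjusted p = 0.000298, and Gbp3 by 0.55, adjusted p = 0.0217). Gbp7 went the other way from them in Clusters 1+2. It was at -0.45 and -0.30 there, against 0.18 and 0.16 in the Hygro and Puro vectors (-0.54, adjusted p = 0.00943), and at -0.52 and -0.60 in Cluster 2, against 0.10 and 0.66 in the Hygro vector (-0.94, adjusted p = 0.00172). In each of these overexpressing groups 1 of 2 arrays was above background for Gbp7. The Cluster 2 value was -0.62 on slide 1 and -1.26 on slide 2. The Gbp7 call in Clusters 1+2 ended without its replicate A. The Gbp3 call ended in Clusters 1+2 without replicate B of either group and in CDH1 without either CDH1 array. The fall of Gbp3 in CDH1 rests on 1 control array, since replicate B of that Puro vector had no value. The Gbp3 probe is named Gbp4 in the scanner files, and the genes of this family are close copies of one another. Mx2, a dynamin-like GTPase, was not called in any comparison.

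Of the remaining members, Parp14, a mono-ADP-ribosyltransferase, was at 0.70 and 0.36 in Cluster 1, against -0.74 and -0.80 in its Puro vector (1.30, SE 0.107, adjusted p = 1.46e-05). It was at -0.31 and -0.17 in Clusters 1+2, against -1.12 and -1.20 in the Hygro and Puro vectors (0.92, adjusted p = 3.66e-05), and fell by 0.71 in CDH1 (adjusted p = 0.000732). In Cluster 2 it was at -1.20 and -1.20, against -1.07 and -0.92 in the Hygro vector, and was not called. Of its other probes 1 was above background on no array and 1 on 3 arrays, and these gave -0.02 and 0.19 in Cluster 1. Bst2 (tetherin), which holds budding virus at the cell surface, was at -0.46 and -0.52 in Cluster 1, against -1.29 and -1.37 in its Puro vector (0.84, SE 0.088, adjusted p = 9.52e-05). It also rose in Clusters 1+2 (0.45, adjusted p = 0.00217). Parp9, a macrodomain protein, rose in Cluster 1 (0.48, adjusted p = 0.0202) and Clusters 1+2 (0.41, adjusted p = 0.0182). Trim25, the ubiquitin ligase that activates RIG-I, did so too (0.44, adjusted p = 0.00247, and 0.37, adjusted p = 0.00199), and its second probe gave 0.11 and 0.42. For Parp9 1 of 2 arrays of the Puro vector for Cluster 1 was above background. The Parp9 calls ended without Cluster 1 replicate A or B or its control's replicate B, and without replicate A of the Hygro and Puro vectors or replicate B of Clusters 1+2.

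Lgals3bp, a secreted binding partner of galectin-3, was the 1 member that rose in Cluster 1 (0.70, adjusted p = 0.000445) and fell in Clusters 1+2. It was at -0.92 and -0.82 in Clusters 1+2, against -0.51 and -0.32 in the Hygro and Puro vectors (-0.46, adjusted p = 0.00219), and fell by 0.78 in CDH1 (adjusted p = 9.75e-05). Trim21, an intracellular antibody receptor, was called in no comparison. In all, 30 of the 40 tested members were called in at least 1 of the 6 comparisons, as were 35.4% of all genes, and 10 in none.

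The 2 Puro vector controls carry the same vector by their labels and were made as controls for different overexpressing cells. The Puro vector for Cluster 1 was lower than that for CDH1 in 19 members. After Ifi202b the largest differences were in Rtp4 (-1.91 and -2.05, against -0.79 and -0.92 in the Puro vector for CDH1), Usp18, Ifi27 (-0.59 and -0.50, against 0.28 and 0.47) and Lgals3bp (-0.54 and -0.47, against 0.33 and 0.39). These differences were -1.13 (adjusted p = 3.9e-05), -1.07, -0.92 (adjusted p = 2.25e-05) and -0.87 (adjusted p = 6.37e-05). Also called were Parp14 (-0.81), Ifi204 (-0.80), Irf1 (-0.78), Oasl2 (-0.66), Igtp (-0.66), Ifi203 (-0.65), Isg15 (-0.64), Gbp3 (-0.58, 1 array missing in the Puro vector for CDH1), Isg20 (-0.53), Irf9 (-0.48), Ifit1, Gbp2 (-0.46), Ifi35 (-0.40) and Bst2 (-0.38), with adjusted p-values between 1.07e-05 and 0.0217. The controls lay on slides 4 and 3, so the slide and the control line cannot be told apart here. The calls of Bst2, Gbp2, Gbp3, Ifi35, Ifit1, Irf9 and Usp18 each ended on leaving out at least 1 of the 4 arrays.

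The comparisons of Cluster 1 and of CDH1 each share a control group with that of the 2 Puro vectors, so none is independent of it. In Cluster 1 29 of 40 members were nearer in level to the Puro vector for CDH1 than to their own control, where 50.1% of all genes were. In CDH1 34 of 40 were nearer to the Puro vector for Cluster 1, where 60.1% of genes were. Against the Puro vector for CDH1, 4 members were higher in Cluster 1 (Isg20 by 0.55, Parp14 by 0.49, Bst2 by 0.46 and Trim25 by 0.32) and 3 lower (Ifi202b by -1.68, Ifi203 by -0.74 and Ifi204 by -0.73), where 8.67% of genes were called, 4.79% higher and 3.88% lower. Rtp4 was at 0.20 (adjusted p = 0.37) and Ifi27 at 0.16 (adjusted p = 0.309) in that comparison, and Irf1 (-0.11), Lgals3bp (-0.17) and Oasl2 (-0.14) turned below 0 without being called. Against the Puro vector for Cluster 1, 2 members were higher in CDH1 (Isg20 by 0.51 and Bst2 by 0.42) and 0 were lower by limma, where 2.45% of genes were called, 1.28% higher and 1.17% lower. The medians over the members were 0.05 for Cluster 1 and 0.04 for CDH1. For Cluster 2 and Clusters 1+2 there was no further vector line to set against.

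**Figure D4:**
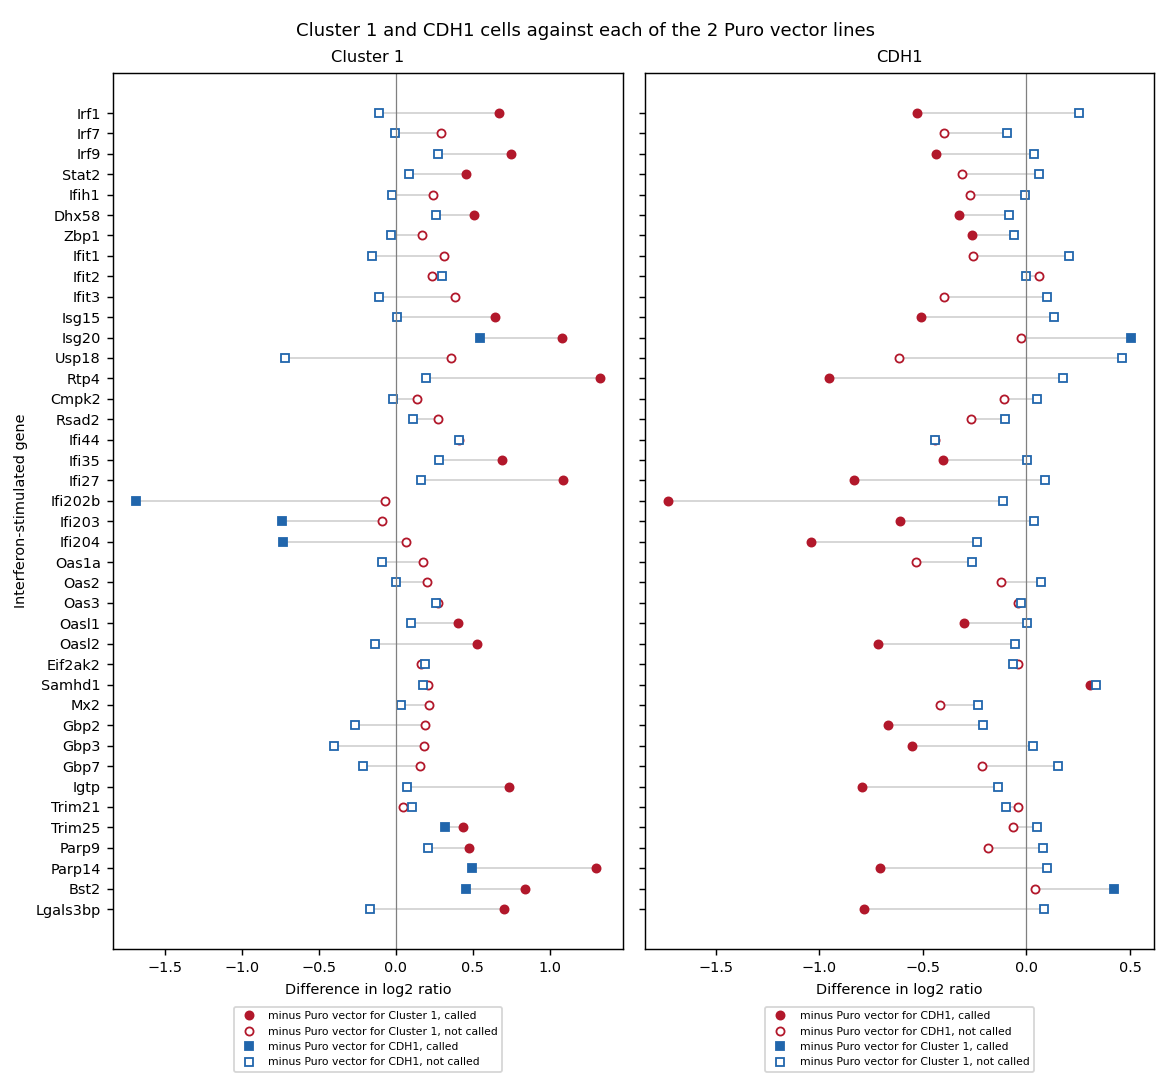
Difference in log2 ratio of each tested member in Cluster 1 (left) and CDH1 (right) against its own Puro vector control (red circles) and against the Puro vector control of the other line (blue squares); filled symbols are called at an adjusted p under 0.05. Against the other line's control 7 members stay or become called in Cluster 1 and 2 in CDH1.

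Of the markers of other cell types, Cd14, a monocyte gene, moved with the list among the Cy5 groups. It was at 0.46 and 0.42 in Cluster 1, against -0.98 and -0.91 in its Puro vector (1.38, adjusted p = 1.14e-06). In CDH1 it was at -0.986 and -0.996, against -0.12 and 0.07 in its Puro vector (-0.97, adjusted p = 7.91e-06). It was lower in the Puro vector for Cluster 1 than in that for CDH1 too (-0.92, adjusted p = 1.96e-05). In Cluster 2 (0.20, adjusted p = 0.235) and Clusters 1+2 (-0.20, adjusted p = 0.141) Cd14 was not called. Its sign there was opposite to that of the members' median. It was 1 of 7 leukocyte markers tested and the 1 called in any comparison. The median of the 7 was -0.05 and -0.10 in Cluster 1, against -0.32 and -0.28 in its Puro vector, and -0.24 and -0.10 in CDH1, against -0.12 and -0.09 in its Puro vector. Of 3 endothelial markers, Cdh5 (-0.75) and Kdr (-0.53) were lower in the Puro vector for Cluster 1 than in that for CDH1. Their part in the levels of the members was not tested.

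The effects of the constructs differed from one another in many members. Cluster 1 minus its control exceeded Cluster 2 minus its control in 19 members and was lower in 0 (2.68% of genes called, 1.74% higher and 0.946% lower; median difference of effects 0.59). It exceeded CDH1 minus its control in 26 members and was lower in 0 (17.2% of genes called, 8.92% higher and 8.28% lower; median 0.75), but each effect there rests on its own Puro line. The effect in Clusters 1+2 exceeded that in Cluster 2 in 13 members and was lower in 1 (6.31% of genes called, 2.94% higher and 3.37% lower; median 0.43). In that last contrast all 4 groups lay on the same pair of slides with the same dye. Rtp4 (1.16, adjusted p = 0.000715) and Parp14 (1.13, adjusted p = 0.000715) differed most between these 2 effects. Taking the scanner software's processed signals gave 3 called members for it, and scaled spread gave 0 by limma. The share of all genes called under those settings is not given here. The counts thus do not show whether the members lost calls more often than other genes.

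The wider interferon pathway was followed in 107 further genes. Besides receptors, kinases, sensors and feedback regulators, these include other interferon targets. Of the 86 tested, 35 were other interferon-stimulated genes, counted again below, and 9 were antigen presentation genes. In Cluster 1 24 of the 86 were higher and 3 lower, where 4.89% of all genes were higher and 3.42% lower. In Cluster 2 3 were higher and 4 lower (1.77% and 1.07% of genes), and in Clusters 1+2 24 were higher and 12 lower of 85 (12.1% and 12.8%), the falls at a share near that of all genes. In CDH1 3 were higher and 26 lower (7.68% and 6.92%), between the Puro vectors 1 and 22 (4.9% and 5.23%), and between the Hygro vectors 0 and 0 by limma. Ifnb1, the gene of interferon beta, was not above background on both arrays of any group and was not tested. Both chains of the type I receptor rose in Cluster 1 (Ifnar1 by 0.34, adjusted p = 0.0233, and Ifnar2 by 0.60, adjusted p = 0.00247) and both fell in CDH1 (each by 0.47, adjusted p = 0.00197 for Ifnar1 and 0.00651 for Ifnar2). Ifngr2 rose in Cluster 1 (0.52, adjusted p = 0.00104) and Clusters 1+2 (0.66, adjusted p = 3.49e-05) and fell in CDH1 (-0.40, adjusted p = 0.00286). Ifngr1 fell in CDH1 (-0.57, adjusted p = 0.000247). The receptor chains were not called in Cluster 2.

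Among the kinases, Jak2, the kinase bound to the interferon gamma receptor, was at 0.70 and 0.66 in Cluster 1, against -0.21 and -0.37 in its Puro vector (0.97, adjusted p = 7.59e-06). It also rose in Cluster 2 (0.38, adjusted p = 0.0146) and Clusters 1+2 (0.35, adjusted p = 0.00343) and fell in CDH1 (-0.43, adjusted p = 0.00189). Jak1 rose in Clusters 1+2 (0.35, adjusted p = 0.00215), and Tyk2 was called nowhere. Socs1, a feedback inhibitor of the JAK kinases, was at 0.24 and 0.31 in Cluster 1, against 1.00 and 0.93 in its Puro vector (-0.69, adjusted p = 0.000225). Socs1 also fell in Clusters 1+2 (-0.74, 1 control array missing, adjusted p = 0.000116) and rose in CDH1 (0.34, adjusted p = 0.0111). Socs3, a related inhibitor, fell in Cluster 1 (-0.37, adjusted p = 0.00465), Cluster 2 (-0.39, adjusted p = 0.00696), Clusters 1+2 (-0.98, adjusted p = 3.61e-07) and CDH1 (-0.82, adjusted p = 7.06e-06).

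Of 35 other interferon-stimulated genes outside the list, 9 were higher and 0 lower in Cluster 1 (4.89% and 3.42% of all genes). The counts were 0 and 3 in Cluster 2 (1.77% and 1.07%) and 9 and 4 of 34 in Clusters 1+2 (12.1% and 12.8%). The falls in Clusters 1+2 were at a share near that of all genes. In CDH1 the counts were 0 and 11 (7.68% and 6.92%), and between the Puro vectors 0 and 9 (4.9% and 5.23%). Most of these genes were thus not called. Apol9b rose in Cluster 1 (0.99, adjusted p = 2.98e-05), fell in Cluster 2 (-0.45, adjusted p = 0.0161) and CDH1 (-1.30, adjusted p = 2.1e-06), and was lower in the Puro vector for Cluster 1 than in that for CDH1 (-1.54, adjusted p = 6.84e-07). Slfn2 rose in Cluster 1 (0.84, adjusted p = 0.00469) and Ifi47 in Clusters 1+2 (1.10, adjusted p = 1e-06). Among the receptors and sensors, Ifnlr1, a chain of the interferon lambda receptor (1.15, adjusted p = 7.1e-06), and Tlr3, a double-stranded RNA receptor (0.96, adjusted p = 3.48e-06), rose in Clusters 1+2. For Ifnlr1 and Tlr3 1 of 2 control arrays was above background. Tlr3 also rose in Cluster 2 (0.44, adjusted p = 0.0112). Among the falls were Trim30a in Cluster 2 (-0.52, adjusted p = 0.00536), Irf8 (-0.84, adjusted p = 3.34e-05) and Tlr4 (-0.81, adjusted p = 3.11e-05) in Clusters 1+2, and Phf11d in CDH1 (-0.9997, adjusted p = 0.00215). Cgas, the cytosolic DNA sensor, was lower in Cluster 1 (-0.27, adjusted p = 0.0323) and higher in CDH1 (0.51, adjusted p = 0.00033). Of the antigen presentation genes that interferon also induces, Psmb8 rose by 1.05 in Cluster 1 (adjusted p = 1.41e-05, 1 control array missing) and fell by 1.497 in CDH1 (adjusted p = 1.07e-07). Psmb9 rose by 1.07 in Cluster 1 (adjusted p = 0.000115) and fell by 1.01 in CDH1 (adjusted p = 9.43e-05), Tap1 was called nowhere, and B2m fell in Clusters 1+2 (-0.39, adjusted p = 0.00943).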

How the data were processed

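RNA (175 ng) of 16 samples was hybridised against a universal mouse reference on 2-colour arrays. The scanner files hold spot intensity, deposited as made by Agilent Feature Extraction 9.5.3.1 per the file headers, with probes placed on build mm7. The authors deposited a ratio of sample over reference for each array. Its log10 values differed from the software's processed ratio by at most 8.06e-08, which fixed its direction, and its column medians were 0.903 to 1.175. No step beyond those headers is given in the sources used here.

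Spots that the software marked (335 to 1675 per array) were removed. Background was corrected with normexp (offset 50) and ratios were normalised by loess within each array (limma 3.58.1, R 4.3.3). Of 45018 spots 1639 were controls, and the rest covered 41174 probes. Of these 22951 were named through their accession, 6659 by symbol and 3109 by an older symbol in RefSeq, and 8455 kept the file's name. The filter kept 26918 probes, those whose sample signal the software called well above background on every array of 1 or more groups. The brightest probe stood for a gene (18885 genes, of which 2709 lacked a value on at least 1 array). One limma model with 8 group means gave the comparisons, with moderated tests and Benjamini-Hochberg adjustment over all genes. The fit was also run on simulated data with noise drawn independently for each array. That simulation did not cover deviations shared by arrays of a slide, and its outcome is not reported here. The number of arrays limits the precision.

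Where no array of a group was well above background, the report prints no size, and the lists of differences between effects name such members. The genes named in each comparison are all called members, with values by array for up to 5 of the largest rises and 5 of the largest falls, and for Irf1, Irf7, Irf9 and Stat2. Pathway genes are counted by direction, with the largest named; some are not reported here. The members, the lists and the removal of marked spots were chosen with earlier results of these data known. Alternatives were another offset, processed signals, marked spots kept, median centring, scaled spread, the sample channel alone, no filter on dim probes, the mean over probes, a replicate block, a fit of the compared groups alone, the other Puro line as control, and leaving out each array.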

Additional observations from a re-analysis of the deposited data

Results flagged for a closer look

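Members are given here because the test of the difference between 2 effects (each overexpressing group minus its own control, limma's moderated test, adjusted over all genes) passed an adjusted p of 0.05. Values are differences between effects on the log2 scale, and a positive one means that the effect of the first named construct was the higher.

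The effect in Cluster 1 differed from that in Cluster 2 in 19 members: Rtp4 (2.09), Ifi27 (1.69), Parp14 (1.51), Oasl2 (1.16), Irf9 (1.11), Gbp7 (1.1), Bst2 (1.09), Igtp (1.04), Ifit1 (1), Lgals3bp (0.99), Isg15 (0.97), Dhx58 (0.94), Ifi35 (0.74), Oasl1 (0.63), Zbp1 (0.63), Ifi204 (0.57), Ifi203 (0.54), Irf1 (0.53) and Trim25 (0.53). Their adjusted p-values lay between 3.49e-05 and 0.041, and 2.68% of all genes passed. Gbp7 and Ifit1 were not well above background on any array of Cluster 1 or its Puro vector, nor Zbp1 on any of that vector, so their values are no measured size. Leaving out 1 of 8 arrays at a time ended the call of Ifi203 in 7 cases, Oasl1 in 5 and Trim25 in 4. The groups differ in dye and slide as well as construct.

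The effect in Clusters 1+2 differed from that in Cluster 2 in 14 members: Rtp4 (1.16), Parp14 (1.13), Gbp3 (0.86), Isg20 (0.77), Bst2 (0.7), Ifi27 (0.68), Ifih1 (0.67), Ifi203 (-0.65), Samhd1 (0.64), Oasl2 (0.51), Trim25 (0.46), Zbp1 (0.44), Isg15 (0.44) and Irf1 (0.37). Their adjusted p-values lay between 0.000715 and 0.0283, and 6.31% of all genes passed. Leaving out 1 of 8 arrays at a time ended the call of Irf1 in 6 cases, Zbp1 in 5, Isg15 and Trim25 in 4, Ifih1 in 3 and Oasl2 in 2. Of 9 other settings, the Irf1 call ended under 9, Zbp1 under 7, and Isg15, Oasl2 and Samhd1 under 6.

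The effect in Cluster 1 differed from that in CDH1 in 26 members: Rtp4 (2.27), Parp14 (2.01), Ifi27 (1.92), Ifi202b (1.66), Igtp (1.53), Lgals3bp (1.48), Oasl2 (1.24), Irf1 (1.2), Irf9 (1.19), Isg15 (1.15), Ifi204 (1.11), Isg20 (1.11), Ifi35 (1.09), Gbp2 (0.86), Dhx58 (0.83), Bst2 (0.8), Stat2 (0.77), Gbp3 (0.74), Oasl1 (0.7), Irf7 (0.69), Parp9 (0.66), Ifit1 (0.57), Ifi203 (0.52), Ifih1 (0.51), Trim25 (0.5) and Zbp1 (0.44). Their adjusted p-values lay between 6.32e-07 and 0.0448, and 17.2% of all genes passed. Stat2 was at background on both Cluster 1 arrays, Zbp1 on both arrays of its Puro vector, and Ifit1 in Cluster 1 and both Puro vectors, so these values are no measured size. Leaving out 1 array at a time ended the call of Ifih1 and Irf7 in 7 cases, Ifit1 in 5, Parp9 and Zbp1 in 2, and Gbp3 and Ifi203 in 1. For Gbp3 the Puro vector for CDH1 had a value on 1 array alone. Each effect here rests on its own Puro vector line and slide, and the lines differed from each other in 19 members, so construct, control line and slide cannot be told apart in these values.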

How the results depend on the processing

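Counts are members called of 40 by limma. The share of all genes called under each setting is not set beside them. The counts thus do not show whether the members lost or gained calls more often than other genes. Keeping the spots marked by the scanner software gave 4 in Cluster 1, 3 in Cluster 2, 12 in Clusters 1+2, 9 in CDH1 and 5 between the Puro vectors, and 3, 3 and 12 for the differences between the effects of Cluster 1 and Cluster 2, of Clusters 1+2 and Cluster 2, and of Cluster 1 and CDH1. The processed signals gave 6 in Cluster 2 and 13 in Clusters 1+2, and 11 and 3 for the first 2 differences. Scaled spread gave 1 in Cluster 2, 9 in Clusters 1+2 and 0 for Clusters 1+2 against Cluster 2. The sample channel alone gave 4 in Cluster 2 and 12 in Clusters 1+2, and 12 and 3 for the first 2 differences. An offset of 10 and median centring each gave 7 for Clusters 1+2 against Cluster 2. Median centring called 4 members higher and 6 lower in Cluster 2, and moved the median of all genes there by 0.136. A fit of the compared groups alone gave 1 in Cluster 2. The other Puro line as control gave 7 in Cluster 1 and 2 in CDH1. With the replicate block the counts were 17 in Cluster 1, 13 in Cluster 2, 21 in Clusters 1+2, 23 in CDH1, 21 between the Puro vectors and 0 between the Hygro vectors. Same-lettered arrays share a slide in the Cy3 groups, per the file headers, and the correlations of their deviations were 0.253 to 0.333 in the 3 Cy3 comparisons and -0.014 to 0.0596 in the other 3. Leaving out 1 array at a time gave 13 to 16 in Cluster 1, 7 to 12 in Cluster 2, 15 to 18 in Clusters 1+2, 13 to 16 in CDH1, 13 to 18 between the Puro vectors and 0 to 1 between the Hygro vectors. For the 3 differences these ranges were 15 to 19, 8 to 20 and 21 to 26. Single values changed sign under some settings. Median centring gave Stat2 0.10 in Cluster 2 and -0.01 in Clusters 1+2, and Irf1 0.17, Irf9 0.054 and Stat2 0.12 between the Hygro vectors. The sample channel alone gave Irf9 0.62 and Oasl1 0.01 in CDH1, Irf9 0.61 between the Puro vectors, and Stat2 0 in Clusters 1+2. The mean over probes gave Irf1 0.075 between the Hygro vectors. The other Puro line gave Irf1 -0.11, Lgals3bp -0.17, Oasl2 -0.14 and Irf7 -0.005 in Cluster 1. It gave Gbp3 0.032, Ifi203 0.037, Ifi27 0.089, Ifi35 0.004, Irf1 0.25, Irf9 0.038, Isg15 0.13, Lgals3bp 0.086, Oasl1 0.002, Parp14 0.10, Rtp4 0.18 and Stat2 0.062 in CDH1. Between the Hygro vectors, leaving out 1 array gave -0.091 to 0.044 for Irf1 and -0.287 to 0.059 for Irf9. The causes were not tested. Over all single-gene values and settings, 1950 kept their direction and side of the threshold, 483 lost the call, 15 gained one and 29 changed sign. With 2 arrays a group and 29.9% to 68.7% of probes well above background, small differences of dim members could not be measured.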
